A study of Mus musculus with 16 samples.

Results

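Fn1, Postn, Lum, Dcn, Sparc, Gsn, Ddr2, Tcf21 and Fbln1 are genes of cardiac fibroblasts and of the extracellular matrix that do not encode collagens. They were followed in the hearts of 16 mice. Each gene was taken from the probe sets whose only gene symbol in the platform annotation was that gene, averaged per gene, and each had 1 such probe set. These are 9 of the 22180 genes measured on the array.

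Cardiac fibroblasts build and turn over the matrix that holds heart muscle cells together. Fibronectin (Fn1) is laid down early in repair and is bound by integrins on the cell surface. Periostin (Postn) and SPARC are matricellular proteins, which are secreted into the matrix and alter how cells and collagen behave there rather than bearing load. Lumican (Lum) and decorin (Dcn) are small leucine-rich proteoglycans that bind collagen fibrils and set their spacing, and decorin also binds TGF-beta. DDR2 is a receptor tyrosine kinase that is activated by fibrillar collagen, gelsolin (Gsn) severs and caps actin filaments, and fibulin-1 (Fbln1) is a glycoprotein of basement membranes and elastic fibres that binds fibronectin. TCF21 is a basic helix-loop-helix transcription factor needed to form cardiac fibroblasts in the embryo, and it marks resident fibroblasts in the adult.

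The mice fell into 4 groups of 4. Clock mice, which are homozygous for the delta 19 allele of Clock and are described as transgenic in the labels, ate a high-fat diet (Clock HFD) or standard chow (Clock SC). Wild-type mice ate the high-fat diet (WT HFD) or standard chow (WT SC). All were of the C57Bl/6J background, had 24 weeks of diet before the hearts were collected, at 32 weeks of age and 7 hours after lights on. The allele removes an exon of Clock, gives a protein that activates transcription poorly and is carried in every tissue, so the mutation is not limited to fibroblasts or to the heart. The time of day was the same in all groups, so a shifted rhythm and a flattened rhythm cannot be told apart.

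RNA of the myocardium was read on 1 Affymetrix array per mouse. Each value is a log difference between 1 array and the median of that probe set in all 16 arrays, read here as log2 with positive values for higher expression, although neither base nor sign is stated in the sources used. They carry no signal level, so genes cannot be ranked by abundance, and the presence of a cell type cannot be checked from its markers. Array medians ranged from -0.00154 to 0.00281. The standard deviation over probe sets ranged from 0.111 to 0.159 and was largest in WT SC replicates 2 and 4. Clock SC replicate 4 had the lowest mean correlation with the other arrays of its group (r = 0.0067). Differences are on the log2 scale, each ± its standard error from limma, and "passed" or "rose" means an adjusted p under 0.05 over all 22180 genes. P-values measure the spread between these hearts.

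Averaged over both diets, 6 of the 9 genes were higher in Clock than in WT hearts and none was lower: Fn1, Ddr2, Sparc, Postn, Gsn and Lum rose by 0.27 to 0.45, or 1.21-fold to 1.37-fold. Over all genes, 2.44% rose in this comparison and 1.44% fell. The median difference of the 9 genes was 0.28, against -0.0014 over all genes. Dcn, Tcf21 and Fbln1 did not pass, and the value of Fbln1 was negative. On chow alone and on HFD alone, Fn1 passed and the other 8 did not. The genes were chosen with earlier results of these hearts known, so their counts describe them and are no test of the list. In whole myocardium, more fibroblasts, more RNA per fibroblast and RNA from other cell types cannot be told apart.

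**Figure D1:**
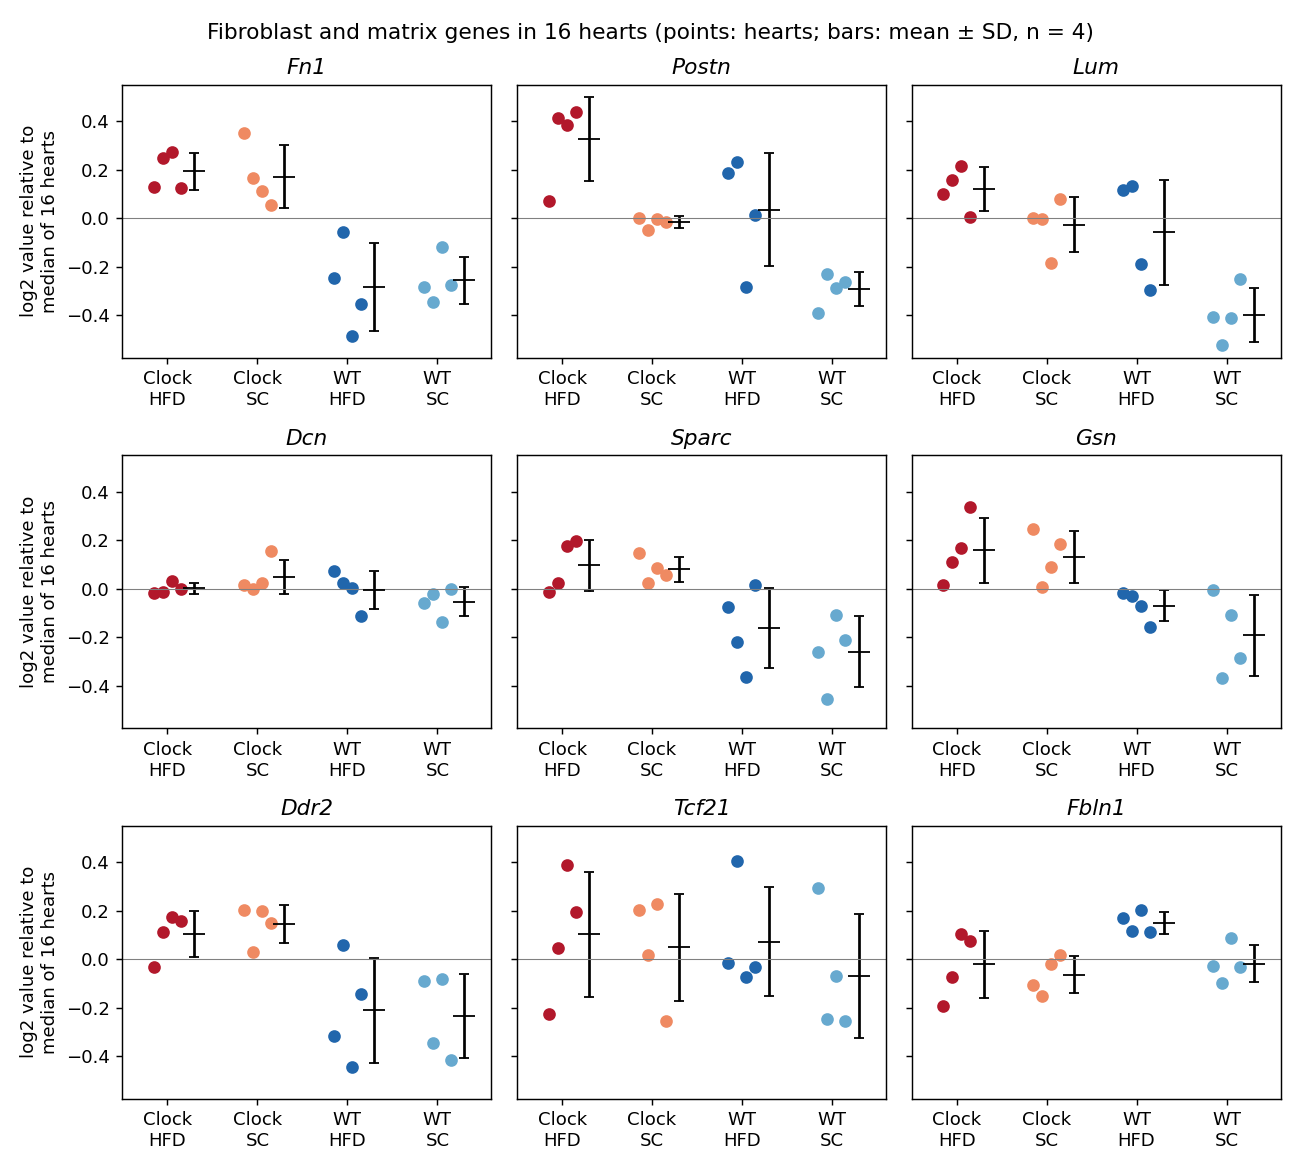
Log2 value of each gene in each heart relative to its median over 16 hearts (y axis), by group (x axis), with points for hearts and bars for the mean ± SD of 4 hearts. Fn1 and Gsn separate the 8 Clock hearts from the 8 WT hearts, and Postn lies lowest in WT SC. Tcf21 is spread widely within every group, in WT HFD only through replicate 2.

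Fn1 showed the largest genotype difference of the 9 genes. Its values were 0.13, 0.25, 0.27 and 0.13 in Clock HFD hearts and 0.35, 0.17, 0.11 and 0.055 in Clock SC hearts. In WT HFD hearts they were -0.25, -0.055, -0.48 and -0.36, and in WT SC hearts -0.28, -0.35, -0.12 and -0.28. Every Clock heart was above every WT heart. On HFD the difference was 0.48 ± 0.08 (1.39-fold, adjusted p = 0.00573) and on chow 0.43 ± 0.08 (1.35-fold, adjusted p = 0.0300). Over all genes 1.13% rose and 0.771% fell on HFD, and 0.239% rose and 0.252% fell on chow. The average over diets was 0.45 ± 0.06 (adjusted p = 0.000312), which placed Fn1 at rank 64 of 22180 by p. The groups ran from Clock HFD (0.19 ± 0.08, SD, n = 4) and Clock SC (0.17 ± 0.13) to WT SC (-0.26 ± 0.10) and WT HFD (-0.29 ± 0.18). The 2 Clock groups lay within their spread of each other, and so did the 2 WT groups. On HFD and on average the call of Fn1 was kept whichever array was left out. On chow it was lost without Clock SC replicate 1 (adjusted p = 0.112), 2 (0.0788) or 3 (0.0627) or WT SC replicate 1 (0.0727), 2 (0.105) or 4 (0.0668).

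The matricellular genes Sparc and Postn both rose on average over diets, Sparc by 0.30 ± 0.06 (1.23-fold, adjusted p = 0.00698) and Postn by 0.28 ± 0.07 (1.22-fold, adjusted p = 0.0266). Sparc was at -0.014, 0.025, 0.18 and 0.20 in Clock HFD hearts and at 0.15, 0.025, 0.088 and 0.058 in Clock SC hearts. In WT HFD hearts it was at -0.077, -0.22, -0.36 and 0.014, and in WT SC hearts at -0.26, -0.46, -0.11 and -0.21. The chow groups did not overlap, and on HFD WT replicate 4 lay inside the Clock range. The differences were 0.34 ± 0.08 on chow (adjusted p = 0.0936) and 0.26 ± 0.08 on HFD (adjusted p = 0.144), and neither passed.

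Postn was at 0.071, 0.42, 0.38 and 0.44 in Clock HFD hearts, and the 4 Clock SC hearts lay close together, between -0.049 and 0.0026. WT HFD hearts were at 0.19, 0.23, -0.29 and 0.013, and WT SC hearts lay between -0.39 and -0.23. All Clock SC hearts were thus above all WT SC hearts, whereas on HFD the groups overlapped. Clock HFD replicate 1 stood apart from its group. The genotype difference was 0.28 ± 0.10 on chow (adjusted p = 0.293) and 0.29 ± 0.10 on HFD (adjusted p = 0.166). The average call was lost without Clock HFD replicate 2 (adjusted p = 0.0599), 3 (0.0561) or 4 (0.0566) or Clock SC replicate 1 (0.0514) or 3 (0.0524).

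Ddr2, the collagen receptor, rose by 0.35 ± 0.07 on average (1.27-fold, adjusted p = 0.00820). It was at -0.032, 0.11, 0.18 and 0.16 in Clock HFD hearts, against -0.32, 0.059, -0.44 and -0.15 in WT HFD hearts. On chow it was at 0.20, 0.032, 0.20 and 0.15 in Clock hearts, against -0.089, -0.35, -0.082 and -0.42 in WT hearts. The chow groups were separate, and on HFD WT replicate 2 lay above Clock replicate 1. Neither diet passed by itself, with 0.38 ± 0.10 on chow (adjusted p = 0.114) and 0.32 ± 0.10 on HFD (adjusted p = 0.132). Without WT HFD replicate 2 the HFD difference was 0.41 and passed (adjusted p = 0.0386).

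Gsn rose by 0.28 ± 0.06 on average (1.21-fold, adjusted p = 0.0111). Its values were 0.014, 0.11, 0.17 and 0.34 in Clock HFD hearts and 0.25, 0.0057, 0.089 and 0.18 in Clock SC hearts. They were -0.020, -0.031, -0.071 and -0.16 in WT HFD hearts and -0.0057, -0.37, -0.11 and -0.29 in WT SC hearts. All 8 Clock hearts were above all 8 WT hearts, as for Fn1, although Clock SC replicate 2 and WT SC replicate 1 nearly met. Over all genes, 0.419% separated the genotypes in this direction. The differences on chow (0.32 ± 0.08, adjusted p = 0.108) and on HFD (0.23 ± 0.08, adjusted p = 0.203) did not pass. The calls of Sparc, Ddr2 and Gsn over both diets were kept whichever array was left out.

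The proteoglycan genes Lum and Dcn gave unlike values. Lum was at 0.098, 0.16, 0.22 and 0.0033 in Clock HFD hearts, against 0.12, 0.13, -0.19 and -0.30 in WT HFD hearts. On chow it was at 0.0026, -0.0026, -0.19 and 0.079 in Clock hearts, against -0.41, -0.52, -0.41 and -0.25 in WT hearts. WT SC hearts were below the other 3 groups except for WT HFD replicate 4. The average rise of Lum was 0.27 ± 0.07 (1.21-fold, adjusted p = 0.0251), with 0.37 ± 0.09 on chow (adjusted p = 0.101) and 0.18 ± 0.09 on HFD (adjusted p = 0.427). Its call was lost without Clock HFD replicate 2 (adjusted p = 0.0527) or 3 (0.0551), Clock SC replicate 1 (0.0501), WT HFD replicate 3 (0.0558) or WT SC replicate 2 (0.0550).

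Dcn varied little. Its lowest and highest values in the 16 hearts were -0.14 and 0.15, and its standard deviation of 0.067 was larger than that of 16.8% of all genes, whereas the other 8 genes lay between 62.4% and 98.3%. It averaged 0.0013 ± 0.022 in Clock HFD hearts and -0.0036 ± 0.079 in WT HFD hearts (SD, n = 4 each). On chow it averaged 0.049 ± 0.071 in Clock hearts and -0.054 ± 0.059 in WT hearts. The average genotype difference was 0.05 ± 0.03 (adjusted p = 0.490), with a 95% interval from -0.019 to 0.13. On chow the groups were narrowly separate (difference 0.10 ± 0.05, adjusted p = 0.519). Dcn and Lum are neighbouring genes on chromosome 10 in RefSeq's GRCm38.p6 order, followed by the proteoglycan genes Kera (-0.12 ± 0.04 on average, adjusted p = 0.115) and Epyc (-0.05 ± 0.04, adjusted p = 0.603), which did not pass either.

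Tcf21 was spread widely in each group, in WT HFD hearts only through replicate 2 (0.41), and gave no detectable genotype difference. Its values ran from -0.22 to 0.39 in Clock HFD hearts, from -0.25 to 0.23 in Clock SC hearts, from -0.073 to 0.41 in WT HFD hearts and from -0.26 to 0.29 in WT SC hearts. The average difference was 0.07 ± 0.11 (adjusted p = 0.814). Its 95% interval, from -0.15 to 0.30, held the average differences of Sparc, Postn, Gsn and Lum. Those of Ddr2 (0.35) and Fn1 (0.45) lay above it. The standard deviation within groups was 0.24, the highest of the 9 genes.

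Fbln1 was the only gene of the 9 with a negative genotype difference on both diets, and it did not pass. On HFD the values were -0.19, -0.074, 0.11 and 0.077 in Clock hearts, against 0.17, 0.12, 0.21 and 0.11 in WT hearts. All Clock HFD hearts lay below all WT HFD hearts, narrowly (-0.17 ± 0.06, adjusted p = 0.224). Over all genes, 3.8% separated the groups in this direction on HFD and 5.09% in the other. On chow the values were -0.11, -0.15, -0.018 and 0.018 in Clock hearts, against -0.027, -0.099, 0.088 and -0.032 in WT hearts, and overlapped (-0.05 ± 0.06, adjusted p = 0.896). The average was -0.11 ± 0.05 (adjusted p = 0.225, unadjusted p = 0.0277).

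Without reference to the test, groups were separate on chow for 7 of the 9 genes, all in the direction of higher values in Clock hearts: Fn1, Postn, Lum, Dcn, Sparc, Gsn and Ddr2. Over all genes, 2.58% separated the chow groups in this direction. On HFD the groups were separate for 3 genes, with Fn1 and Gsn higher and Fbln1 lower in Clock hearts. Over all genes, 5.09% separated the HFD groups with higher and 3.8% with lower values in Clock hearts. The 6 genes with an unadjusted p under 0.05 on chow were Fn1, Sparc, Lum, Gsn, Ddr2 and Postn, while 9.77% of all genes had one. On HFD there were 6 as well, Fn1, Ddr2, Sparc, Postn, Gsn and, with a negative difference, Fbln1, while 13.5% of all genes had one.

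**Figure D2:**
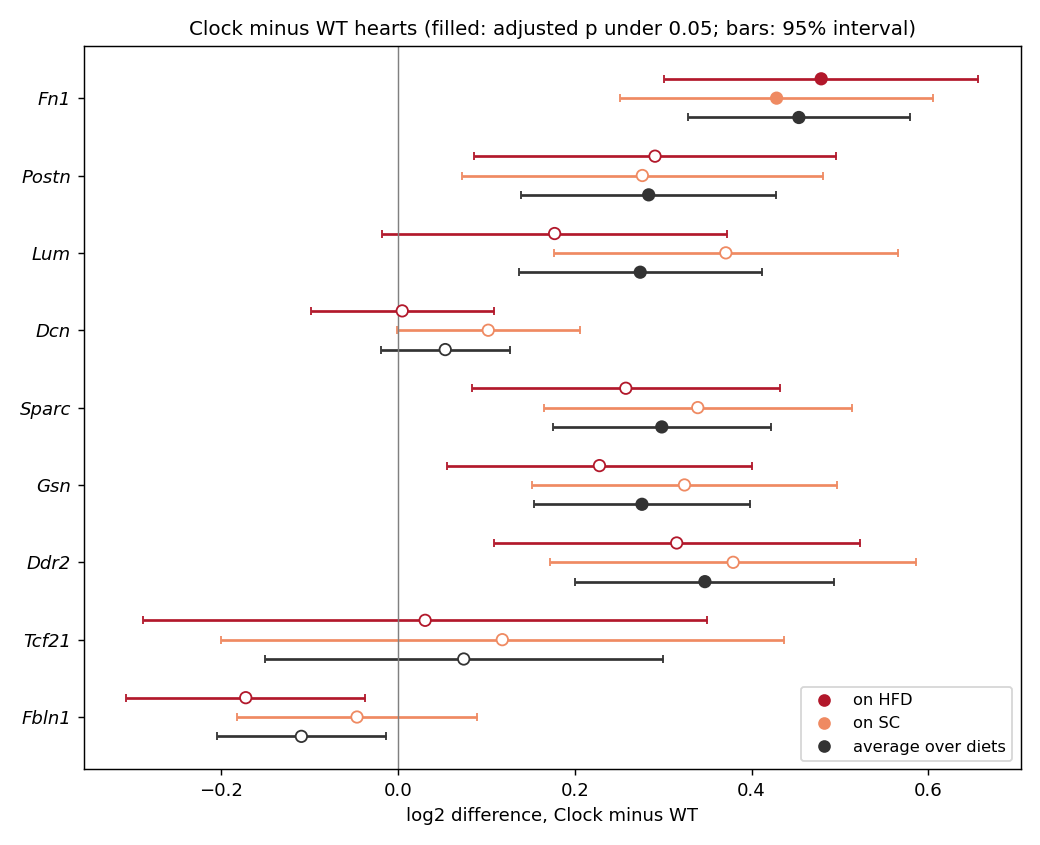
Clock minus WT difference of each gene (x axis, log2) on HFD, on SC and averaged over diets, with 95% intervals from the limma fit and filled points for adjusted p under 0.05. Fn1 passes on both diets and 6 genes pass on average, while all intervals of Dcn and Tcf21 include 0. The points of Fbln1 lie left of 0, and its interval on SC includes 0, as does that of Lum on HFD.

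Whether genes differed from each other in the genotype difference was tested on the difference between each pair of genes within a heart, by an exact permutation of genotype within each diet (two-sided, 4900 arrangements). This test was added after the values were seen. The 6 genes that rose are grouped by their genotype difference in these same hearts. Small p-values for pairs across that grouping follow in part from it, so they describe these values and are no separate evidence. Of 36 pairs, 16 differed at an adjusted p under 0.05 over the 36. Fbln1 differed from each of the 6 genes that rose, by 0.38 to 0.56 (exact permutation p = 0.00041, the smallest the arrangements allow, for 5 of them, and 0.00163 for Lum). Dcn differed from each of these 6 genes too, by 0.22 to 0.40 (exact permutation, adjusted p from 0.0049 to 0.0186). Lum thus moved more than its neighbour Dcn, by 0.22 (exact permutation, adjusted p = 0.0107). Dcn and Fbln1 differed by 0.16 (exact permutation, adjusted p = 0.00882). Tcf21 differed from Fn1 (exact permutation, adjusted p = 0.00735) and Ddr2 (0.0113) and not detectably from the other 4. Among the 15 pairs within the 6 genes, Fn1 and Postn differed, by 0.17 (exact permutation, adjusted p = 0.0377), and 14 pairs did not pass. Each probe set can respond to its transcript with its own slope, so these values compare array signals.

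The start sites of 6 of the 9 genes are in the RefSeq promoter windows (GRCm38.p6, 250 bases before to 50 after the start). Those windows were searched on both strands for CACGTG, the E-box that CLOCK and BMAL1 bind, for the related CAGCTG, for TATAAA and for the AP-1 site TGANTCA. Sparc, Ddr2 and Postn, which rose in Clock hearts, are shown beside Fbln1, which differed from them, each on its own line, 5′ to 3′ on the strand of the gene, with matches in capitals.
Sparc, chr11:55420031-55420330, minus strand: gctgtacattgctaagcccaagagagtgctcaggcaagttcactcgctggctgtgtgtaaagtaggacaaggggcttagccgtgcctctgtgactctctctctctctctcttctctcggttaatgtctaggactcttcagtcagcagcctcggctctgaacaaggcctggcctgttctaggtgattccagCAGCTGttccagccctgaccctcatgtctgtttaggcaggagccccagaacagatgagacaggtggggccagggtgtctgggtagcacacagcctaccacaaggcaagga
Ddr2, chr1:170088895-170089194, minus strand: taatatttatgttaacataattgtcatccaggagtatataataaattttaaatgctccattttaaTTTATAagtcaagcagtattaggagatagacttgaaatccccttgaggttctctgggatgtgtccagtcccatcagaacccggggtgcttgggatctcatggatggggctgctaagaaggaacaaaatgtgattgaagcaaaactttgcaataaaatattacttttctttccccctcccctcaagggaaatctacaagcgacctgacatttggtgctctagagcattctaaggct
Postn, chr3:54360857-54361156, plus strand: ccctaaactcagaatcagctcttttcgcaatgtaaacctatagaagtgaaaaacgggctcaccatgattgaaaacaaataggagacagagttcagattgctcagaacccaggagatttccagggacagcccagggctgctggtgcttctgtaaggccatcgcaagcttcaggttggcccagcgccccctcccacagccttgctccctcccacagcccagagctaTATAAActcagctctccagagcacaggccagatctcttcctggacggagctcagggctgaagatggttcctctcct
Fbln1, chr15:85205699-85205998, plus strand: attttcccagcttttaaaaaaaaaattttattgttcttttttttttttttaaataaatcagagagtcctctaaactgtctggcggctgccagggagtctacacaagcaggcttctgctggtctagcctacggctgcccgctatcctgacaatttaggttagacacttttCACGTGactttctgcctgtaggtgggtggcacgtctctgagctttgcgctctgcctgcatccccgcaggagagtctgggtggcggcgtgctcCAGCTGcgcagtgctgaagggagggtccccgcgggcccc
CACGTG was found in the windows of Fbln1 and in none of the other 5 genes, and begins 81 bases before the start site shown here. The windows of Fbln1 overlap and hold the same CACGTG site. Fbln1 did not pass for genotype, and whether CLOCK binds or acts through any of these sites was not tested. Of all 32851 windows 7.15% hold it. CAGCTG occurs in Sparc, 60 bases before the start, and in Fbln1 at base 12 after it, as well as in windows of Gsn that are not shown. It occurs in 16.3% of all windows. TATAAA lies 26 bases before the start of Postn and on the opposite strand of Ddr2, and in 13.6% of all windows. TGANTCA was not in any window of the 6 genes and is in 7.81% of all. The motifs do not overlap each other in the windows shown. Fn1, Lum and Dcn have no window in the table used.

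High-fat diet raised Postn on average over the genotypes and no other gene of the 9. Over all genes 0.812% rose with HFD and 0.726% fell. The difference was 0.34 ± 0.07 (1.26-fold, adjusted p = 0.0227). It was of the same size in both genotypes, 0.34 ± 0.10 in Clock hearts (adjusted p = 0.258) and 0.33 ± 0.10 in WT hearts (adjusted p = 0.171), where it did not pass. In Clock hearts all HFD values of Postn were above all SC values, which 2.89% of all genes also showed. In WT hearts HFD replicate 3 lay at -0.29, inside the SC range, and without it the WT difference was 0.44 and passed (adjusted p = 0.0399). The average call of Postn was kept whichever array was left out. The order of the Postn groups was Clock HFD (0.33 ± 0.17, SD, n = 4), WT HFD (0.036 ± 0.23), Clock SC (-0.016 ± 0.023) and WT SC (-0.29 ± 0.07), and WT HFD and Clock SC lay within their spread of each other.

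Lum was next, at 0.24 ± 0.07 with HFD on average without passing (adjusted p = 0.0742). Its diet difference was 0.15 ± 0.09 in Clock hearts (adjusted p = 0.733) and 0.34 ± 0.09 in WT hearts (adjusted p = 0.129). Without WT HFD replicate 4, whose value was the lowest of its group, the average was 0.28 and passed (adjusted p = 0.0333). Fn1 gave -0.0038 ± 0.059 with HFD on average, with a 95% interval from -0.13 to 0.12, and Ddr2 -0.0093 ± 0.069, with an interval from -0.16 to 0.14. Dcn gave 0.0014 ± 0.034, and Sparc, Gsn and Tcf21 lay between 0.057 and 0.098.

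Fbln1 gave 0.11 ± 0.05 on average with HFD (adjusted p = 0.312). In WT hearts all 4 HFD values, between 0.11 and 0.21, were above all SC values, between -0.099 and 0.088 (0.17 ± 0.06, adjusted p = 0.314), and 2.8% of all genes were separate in this direction. In Clock hearts the diet groups overlapped (0.04 ± 0.06, adjusted p = 0.930). Within Clock hearts limma called 0 of the 9 genes for diet, while 0.0496% of all genes rose and 0.0406% fell. There 1 of the 9, Postn, had an unadjusted p under 0.05, as did 8.42% of all genes. Within WT hearts it called 0 of the 9, while 0.185% of all genes rose and 0.167% fell. There 3 of the 9, Postn, Lum and Fbln1, had an unadjusted p under 0.05, as did 10.7% of all genes.

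**Figure D3:**
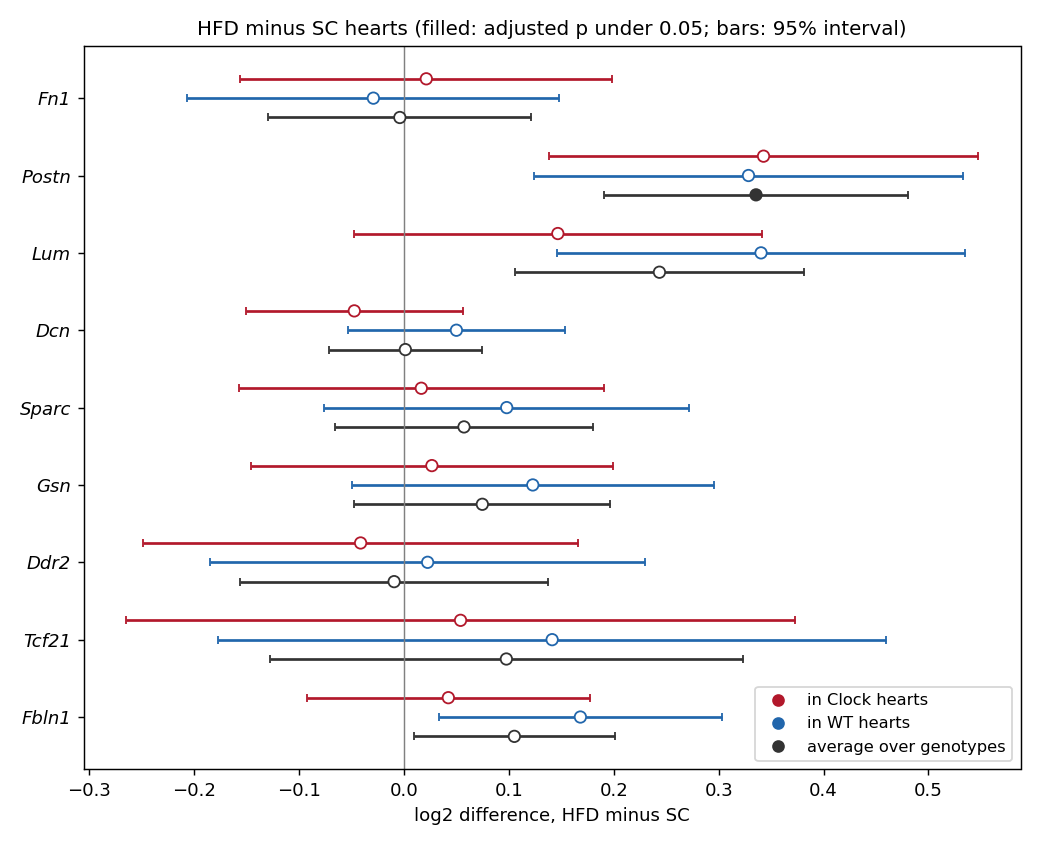
HFD minus SC difference of each gene (x axis, log2) in Clock hearts, in WT hearts and averaged over genotypes, with 95% intervals from the limma fit and filled points for adjusted p under 0.05. Postn is the only filled point, at 0.34 on average, and Fn1, Ddr2 and Dcn lie near 0.

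The design also asks whether the mutation altered what the diet did. The difference between the diet effects (Clock minus WT) had no call by limma among the 9 genes, nor an unadjusted p under 0.05, and 0 of all 22180 genes were called (0% in either direction), with 5.06% at an unadjusted p under 0.05. The values ran from -0.19 ± 0.13 for Lum (95% interval from -0.47 to 0.082) to 0.05 ± 0.12 for Fn1 (95% interval from -0.20 to 0.30). For Postn the value was 0.014 ± 0.14, with an interval from -0.27 to 0.30. An interaction as large as the genotype difference of most of these genes lies inside the intervals, so equal diet effects are not shown.

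Related gene families are given by their counts, to be read against the 2.44% of all genes that rose and the 1.44% that fell on average. Among 16 other genes of fibulins and elastic fibres 2 rose in Clock hearts on average, Fbln5 (0.34 ± 0.05, adjusted p = 0.000743), a fibulin needed for elastic fibre assembly, and Mfap4 (0.33 ± 0.06, adjusted p = 0.00686), a microfibril-associated protein. The other 14 did not pass, with Fbln2 at 0.21 ± 0.06 (adjusted p = 0.0783), and the list median was 0.10. Among 11 genes of basement membranes and large proteoglycans 3 rose, the laminin chain genes Lama5 (0.42 ± 0.07) and Lama2 (0.18 ± 0.04) and the linker gene Nid1 (0.34 ± 0.05), with a median of 0.18. None of 12 other small leucine-rich proteoglycans rose, and Podn, which encodes podocan, fell by 0.36 ± 0.05 (adjusted p = 0.000362, median of the list -0.017). Lum was thus above 0 in a family of which 5 of 12 other genes were, and Bgn, the close relative of Dcn, was at -0.09 ± 0.05 (adjusted p = 0.373).

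Of 20 other matricellular genes 2 rose in Clock hearts on average, Tnxb, a tenascin (0.22 ± 0.05), and Ccn3 (0.14 ± 0.03), and 18 did not pass, among them the SPARC relative Sparcl1 (0.12 ± 0.04, adjusted p = 0.103). The median was 0.022. None of 17 other receptors for fibronectin and collagen passed (median 0.044), with Itga11, a collagen-binding integrin chain, at 0.21 ± 0.06 (adjusted p = 0.0804) and Ddr1, the relative of Ddr2, at -0.05 ± 0.03 (adjusted p = 0.453). None of 9 genes of actin severing passed (median -0.028). Of 14 mesenchymal transcription factors Meox1 (0.47 ± 0.09) and Scx (0.22 ± 0.05) rose (median 0.028). Of 10 genes of activated fibroblasts Meox1 and the lysyl oxidase gene Lox (0.18 ± 0.04) rose, and Acta2, the smooth muscle actin of myofibroblasts, was at -0.49 ± 0.15 without passing (adjusted p = 0.0741), with a list median of 0.039.

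On each diet fewer genes of these families passed, as was so over all genes. There 0.239% rose and 0.252% fell on chow, and 1.13% rose and 0.771% fell on HFD. On chow Nid1 rose (0.39 ± 0.07) and no other. On HFD Fbln5 (0.40 ± 0.07), Nid1 (0.29 ± 0.07), Lama5 (0.44 ± 0.09), Thbs1 (1.16 ± 0.27), Scx (0.38 ± 0.08) and Cilp (0.46 ± 0.11) rose and Podn fell by 0.49 ± 0.07. With HFD, on average over genotypes, where 0.812% of all genes rose and 0.726% fell, Lama2 rose (0.17 ± 0.04). Efemp1, a fibulin (-0.21 ± 0.05), Cd44, the hyaluronan receptor (-0.20 ± 0.04), and Cfl1, the actin-severing cofilin (-0.28 ± 0.05), fell, and no family gene passed for diet within a genotype. Of the 11 family genes called for genotype on average, 9 kept the call whichever array was left out, against 2 of 7 on HFD, 0 of 1 on chow and 2 of 4 for diet. Without WT SC replicates 2 and 4, Fbln5, Podn, Nid1, Lama5 and Meox1 kept the average genotype call, and Mfap4, Lama2, Tnxb, Ccn3, Scx and Lox did not, with adjusted p from 0.0522 to 0.0935. In that setting Cfl1 kept its diet call, and Cd44, Efemp1 and Lama2 did not, with adjusted p from 0.0716 to 0.192.

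Among markers of cell types, 5 of 10 endothelial genes passed for genotype on average, and at most 1 gene of each of the other cell types, where 2.44% of all genes rose and 1.44% fell. Of 10 other fibroblast markers, Col1a1 rose in Clock hearts on average (0.30 ± 0.07) and 9 did not pass, with 9 of 10 above 0 and a median of 0.13. Averaged per heart, these markers ran from -0.10 to 0.13 in Clock HFD hearts and from 0.0022 to 0.12 in Clock SC hearts. They ran from -0.18 to 0.050 in WT HFD hearts and from -0.15 to 0.0044 in WT SC hearts. Of 10 endothelial markers, Robo4, Esam, Egfl7, Tek and Pecam1 rose on average (0.16 to 0.36), with 10 of 10 above 0 and a median of 0.19. Without WT SC replicates 2 and 4, Robo4 and Egfl7 kept this call. Esam, Tek and Pecam1 did not, with adjusted p from 0.0544 to 0.0838. The endothelial mean ran from -0.050 to 0.18 in Clock HFD hearts and from 0.040 to 0.15 in Clock SC hearts, against -0.21 to -0.15 in WT HFD hearts and -0.12 to 0.072 in WT SC hearts. Beside the rise of Postn with HFD on average, the endothelial genes Kdr, Emcn and Egfl7 fell (-0.24 to -0.20). So did the fibroblast marker Vim (-0.15 ± 0.04), the mesothelial marker Upk3b (-0.27 ± 0.05) and the immediate early gene Egr2 (-0.32 ± 0.07). The cardiomyocyte gene Ryr2 rose (0.15 ± 0.03). Vim and Ryr2 went against their lists, with 7 of 10 fibroblast markers (median 0.069) and 4 of 10 cardiomyocyte markers (median -0.0080) above 0. Of the other lists, 1 of 10 endothelial markers (median -0.085), 3 of 7 mesothelial markers (-0.094) and 2 of 12 immediate early genes (-0.21) were above 0. Upk3b and Egr2 kept the call whichever array was left out. Of the 16 arrays, the removal of a single one ended the call of Kdr for 3, of Egfl7 for 5, of Emcn for 10, of Ryr2 for 11 and of Vim for 14. Without WT SC replicates 2 and 4, Upk3b and Egfl7 kept the diet call. Egr2 (adjusted p = 0.104), Kdr (0.104), Emcn (0.0880), Ryr2 (0.165) and Vim (0.157) did not. The part of endothelial cells in these results was not tested.

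The mean of 10 cardiomyocyte markers, of which Ryr2 rose on average (0.17 ± 0.03), ran from 0.011 to 0.081 in Clock HFD hearts and from -0.081 to -0.013 in WT HFD hearts. On chow it ran from -0.099 to 0.064 in Clock hearts and from -0.12 to 0.046 in WT hearts. With this mean as a covariate Fn1 and Lum were called on average, and the count of genes that rose was 2 in place of 6. Postn (adjusted p = 0.0973), Sparc (0.0516), Gsn (0.0786) and Ddr2 (0.0572) kept differences of 0.22 to 0.28. Of 9 markers of pericytes and smooth muscle the channel gene Abcc9 fell in Clock hearts on average (-0.34 ± 0.05). The other 8 did not pass, and 5 of the 9 were above 0, with a list median of 0.11. None of the markers of macrophages (10 genes), T and B cells (6), neutrophils (5), adipocytes (4), mesothelium (7) or Schwann cells (3) passed for genotype on average. Neutrophil markers had their highest mean (0.27) in Clock SC replicate 4 and macrophage markers (0.39) in WT SC replicate 2.

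The mean of 12 immediate early genes, whose transcription follows a stimulus quickly, varied more between hearts. It ran from -0.60 to 0.39 in Clock HFD hearts and from 0.014 to 0.28 in Clock SC hearts, against -0.64 to 0.049 in WT HFD hearts and -0.15 to 0.18 in WT SC hearts. With it as a covariate 4 of the 9 genes rose in Clock hearts on average, and Postn (0.28 with and without the covariate, adjusted p = 0.0676) and Lum (0.26 with it and 0.27 without, adjusted p = 0.0732) did not pass. The diet call of Postn was lost as well (0.34, adjusted p = 0.0860). Of these 12 genes Egr2 rose (0.30 ± 0.07) and Ier3 fell (-0.40 ± 0.08) in Clock hearts on average. In this comparison 11 of the 12 were above 0, with a median of 0.24. The part of the immediate early genes in the result was not tested further. Without WT SC replicates 2 and 4, Fn1 (0.43) and Sparc were called for genotype on average, and Postn (adjusted p = 0.0627), Lum (0.0596), Gsn (0.0656) and Ddr2 (0.0557) were not, with differences of 0.21 to 0.31. That setting leaves 2 WT SC hearts and was not among the planned settings.

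**Figure D4:**
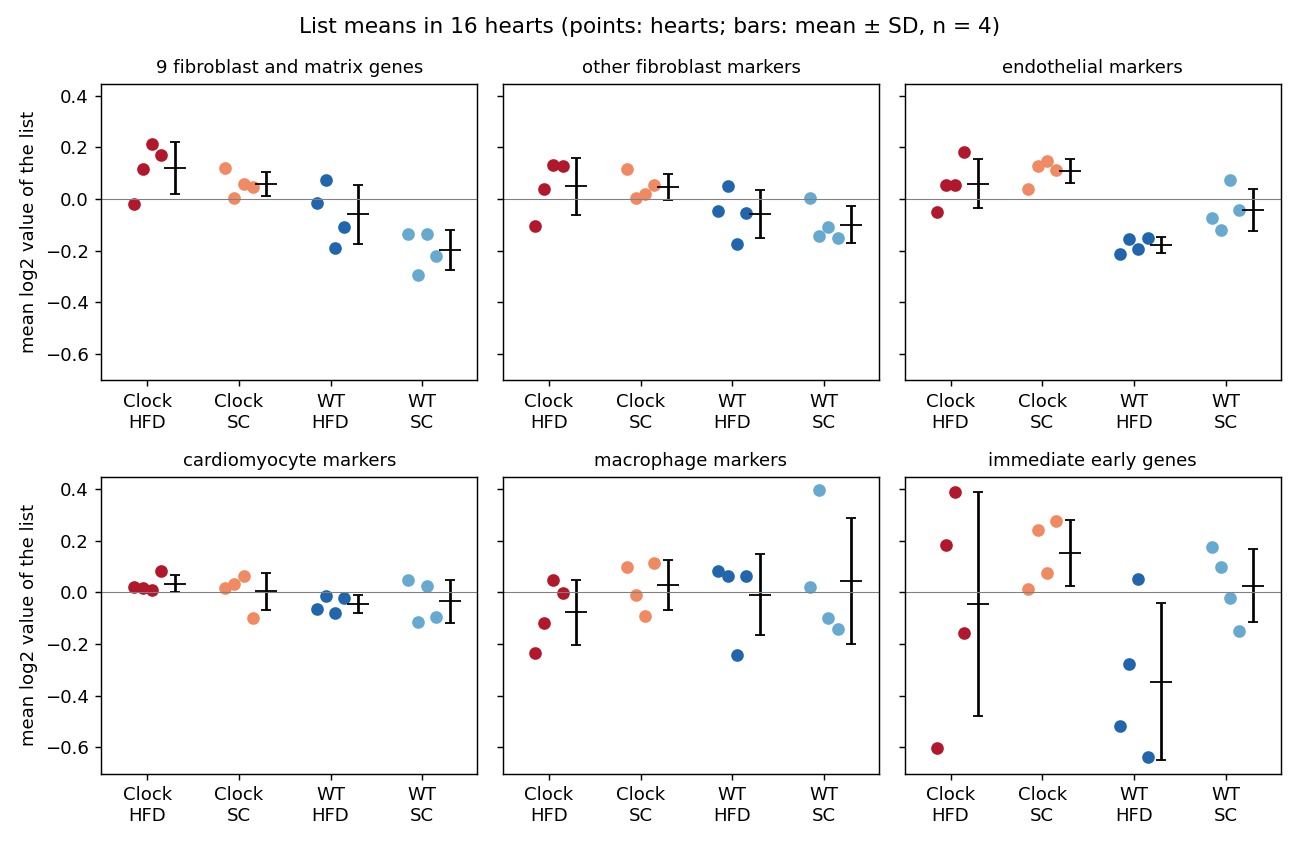
Mean log2 value of each list in each heart (y axis) by group (x axis), with points for hearts and bars for the mean ± SD of 4 hearts. The mean of the 9 genes is lowest in WT SC (-0.20) and highest in Clock HFD (0.12), endothelial markers are lowest in WT HFD, and immediate early genes are spread most.

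Within groups the genes tended to vary together. After group means were taken out, the 36 pairwise correlations over 16 hearts had a median r of 0.30 and ran from -0.32 to 0.73, with 31 above 0. These correlations are descriptions, since all genes of a heart share its array and its mix of cells. The highest were Ddr2 with Tcf21 (0.73), Fn1 with Ddr2 (0.64) and Lum with Dcn (0.61). The lowest were Dcn with Sparc (-0.32), Ddr2 (-0.25) and Tcf21 (-0.16). Gsn and Fbln1, whose genotype differences had opposite signs, had an r of 0.60 within groups and 0.012 over all hearts.

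**Figure D5:**
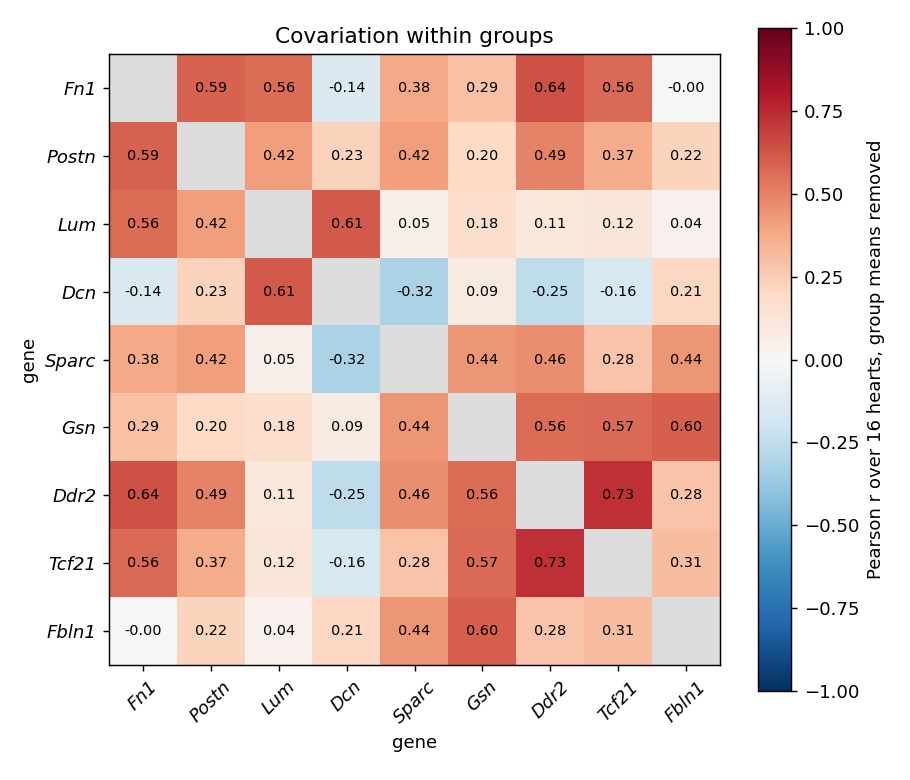
Pearson correlation of each pair of genes over 16 hearts after the mean of each group was taken out (colour scale and numbers, from -1 to 1; rows and columns are genes). Most pairs are above 0, with Ddr2 and Tcf21 highest at 0.73, and the Dcn row holds 4 of the 5 values below 0.

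Of 19374 other named genes, the 5 whose values over the 16 hearts were most like the mean of the 9 genes were Mmp2 (r = 0.94), a metalloproteinase that cleaves matrix, Mfap4 (0.89), the endocytic receptor gene Lrp1 (0.89), Arhgap12 (0.88) and the collagen gene Col1a1 (0.88). With group means taken out, these r were 0.79, 0.73, 0.68, 0.74 and 0.81. Ankrd23, which encodes an ankyrin repeat protein of muscle, was most like Fn1 (0.92), Mfap4 most like Gsn (0.93) and Nid1 most like Ddr2 (0.92). For Dcn and Fbln1 the highest r were 0.78 (Sema5a) and 0.80 (Hnrnpab). Such values are the highest of many and include the genotype difference where a gene has one.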

How the data were processed

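Per the labels' protocols, 500 ng of total RNA from each of 16 hearts went onto its own Affymetrix array. The deposited values of 34351 probe sets were treated as log2 values. They are centred per probe set (over the 16 arrays, no probe set's median exceeds 5e-07 in size). Software, background correction and normalization method, and the base and sign of the log are not given in the sources used. Centring removes signal levels, so no filter on dim genes could be run.

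The 23521 probe sets with 1 symbol in the platform annotation gave 22180 genes, averaged where a gene had several. Those with more symbols (1814) or without one (9016) entered only the setting that tested every probe set. limma 3.58.1 in R 4.3.3 was fitted to 4 group means (residual degrees of freedom 12, prior 4.16, two-sided moderated tests, Benjamini-Hochberg over all genes, threshold 0.05). The 7 comparisons were genotype on each diet, diet in each genotype, both averages and the interaction. Intervals are 95%, and precision is limited by how many arrays there are. Of 113 family list entries 109 were matched and of 96 marker entries 86. None of the 5 erythroid entries was matched, so that list was not used. The 9 genes and the lists were chosen with earlier results of these data known. Named were the 9 genes, up to 4 passing genes per family list with the smallest p, and the genes of most similar pattern. Other list members were named after their values were seen. The fit was tested on simulated data. Figures were drawn with matplotlib 3.10.9. Replicate numbers are shared by the groups, but the deviations of same-numbered arrays correlated by over 0.1 in 3 of 24 pairs, so they were not treated as pairs. Promoter sequences are from RefSeq (GRCm38.p6).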

Additional observations from a re-analysis of the deposited data

Results flagged for a closer look

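In Clock HFD hearts Postn of replicate 1 (0.071) lay far from the other 3 (0.38 to 0.44). In Clock SC hearts Dcn of replicate 4 (0.15) lay far above the other 3 (0.00028 to 0.024). In WT HFD hearts Tcf21 of replicate 2 (0.41) lay far above the other 3 (-0.073 to -0.016). Each gap exceeded Dixon's 95% critical value for 4 samples, with ratios of 0.854, 0.843 and 0.883. Of 36 gene and group combinations 3 were picked out in this way, and chance picks out about 1 in 20 groups.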

How the results depend on the processing

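A filter on dim genes was not run because the values hold no level. No call of the 9 genes changed sign under the settings run. Each of the 9 genes has 1 probe set, so the choice of the largest-SD probe set could not alter their values. Robust eBayes, array weights, repeated quantile normalization and testing every probe set left the count of called genes as it was in all 7 comparisons. On chow the genotype call of Fn1 (1 gene) was lost with the replicate block (0 genes, adjusted p = 0.0554), in a fit of only the 8 arrays compared (0, adjusted p = 0.0774) and without WT SC replicates 2 and 4 (0, adjusted p = 0.25), and the count ran from 0 to 1 when each array was left out. The block on replicate number changed no other call of the 9 genes, and the numbers did not pair the arrays. Averaged over diets, 6 genes rose, 4 with the early gene mean as a covariate, 2 with the cardiomyocyte mean, 2 without WT SC replicates 2 and 4, and 4 to 6 when each array was left out. The diet call of Postn (1 gene) became 0 with the immediate early gene covariate (adjusted p = 0.0860) and without those 2 arrays (adjusted p = 0.0605), and the count ran from 1 to 2 over the arrays left out. On HFD the genotype count ran from 1 to 2 and for diet in WT from 0 to 1. Other changes of calls came with fewer arrays or a further term in the fit, and their cause was not tested. The 16 pairs of genes that differed became 15 with quantile normalization, 12 without WT SC replicates 2 and 4, and 15 to 18 over the arrays left out.

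Over all genes the counts moved by more than 1.5 times in these settings. For genotype on chow 109 became 38 with only the arrays compared and 49 without WT SC replicates 2 and 4. On HFD 422 became 266 with the immediate early gene covariate. On average 861 (541 higher and 320 lower) became 558 (255 and 303) with the cardiomyocyte covariate and 507 (260 and 247) without the 2 arrays. For diet in Clock hearts 20 became 53 with array weights, 36 with quantile normalization, 12 with the replicate block and 7 with only the arrays compared. In WT hearts 78 became 41 with the block, 23 and 156 with the early gene and the cardiomyocyte covariates, 15 with only the arrays compared and 11 without the 2 arrays. On average 341 became 111 with the early gene covariate and 141 without the 2 arrays, and the interaction had 3 calls in place of 0 with the cardiomyocyte covariate. Leaving out 1 array gave 49 to 144 genes for genotype on chow, 241 to 490 on HFD and 648 to 1003 on average, and for diet 6 to 27 in Clock hearts, 28 to 90 in WT hearts and 218 to 329 on average, so the shares of all genes printed as background move with single arrays. The lowest counts came without Clock SC replicate 1 or WT SC replicate 2 on chow (49 each), Clock HFD replicate 2 on HFD (241), Clock HFD replicate 3 for diet in Clock hearts (6), WT HFD replicate 4 for diet in WT hearts (28) and Clock HFD replicate 4 for diet on average (218). Without Clock SC replicate 4 the genotype counts were highest on chow (144), on HFD (490) and on average (1003).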
